A study of Homo sapiens with 19 samples.

Results

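The complement genes C1R, C1S, SERPING1, C3, CFB, CFI and C5 were followed across human liver organoids. They were chosen by name, matched by Ensembl identifier, and make up 7 of the 32703 gene identifiers present in every matrix. The rule uses gene identity alone, but the set was chosen with earlier results of these data known. The organoids came from W01, an established human pluripotent stem cell line distributed by WiCell, of wild-type genotype in every group, and single cells were profiled with the 10x Genomics 3′ version 3 chemistry. The 19 libraries formed 9 groups. Organoids in ultra-low attachment plates (ULA) were taken untreated on day 21 (n = 3) and day 34 (n = 2). Organoids on an orbital shaker (OS) were taken on day 25, with 2 libraries in each of 7 groups. These were untreated organoids and 3 treatments, each beside a control group of its own, namely TGFB1 (10 ng/ml), PA (500 µM) and OA (500 µM), abbreviations that are kept here as the labels have them. TGFB1 and PA were given for 5 days after 20 days of culture, whereas for OA the labels give the concentration and the day of sampling. Dissociation of ULA day 34 and OS organoids added a wash and prolonged the trypsin step by 10 minutes. Every group rests on 1 cell line. Nothing in the labels says that replicates came from separate cultures, so p-values measure the spread between these libraries, which may be technical.

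Complement is a cascade of plasma proteins, made largely by the liver, that marks microbes and damaged cells for removal. In the classical route the proteases C1r and C1s are carried on C1q. C1r activates C1s, which cleaves C4 and C2, and C1 inhibitor, the product of SERPING1, blocks both proteases. All routes meet at C3, whose active fragment is tagged onto surfaces. Factor B, the product of CFB, joins that fragment to form the convertase of the alternative pathway, which cleaves more C3. Factor I, the product of CFI, cuts the fragment into inactive forms with the help of cofactors such as factor H. C5 is cleaved downstream and starts the membrane attack complex. Hepatocytes are the main source of most of these proteins in liver, and C3 and CFB are known as acute-phase genes that respond to inflammatory cytokines.

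Stretches upstream of the RefSeq start sites (GRCh38.p14) are shown for CFB, CFI and C1R. In whole libraries all of them were called with OA, and CFI with TGFB1 as well. The promoter table matched 4 of the 7 genes, these and C5, whose windows held no match. C1R has another listed start whose window lies in exons and is not shown. The CFB stretch lies inside the annotated span of CFB, which begins at chr6:31945650, and those of CFI and C1R lie outside their genes. The stretches run 5′ to 3′ on the gene's strand from 250 bases before the start and stop where an annotated exon begins. Capitals mark the only match in the stretch to the motifs searched on both strands.
CFB, chr6:31945845-31945974, plus strand: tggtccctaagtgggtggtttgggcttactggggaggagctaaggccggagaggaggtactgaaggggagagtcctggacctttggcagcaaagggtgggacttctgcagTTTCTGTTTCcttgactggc
C1R, chr12:7092541-7092695, minus strand: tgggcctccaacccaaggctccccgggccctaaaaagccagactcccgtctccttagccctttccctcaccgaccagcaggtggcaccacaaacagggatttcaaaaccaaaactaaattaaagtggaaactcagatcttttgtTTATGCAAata
CFI, chr4:109802151-109802249, minus strand: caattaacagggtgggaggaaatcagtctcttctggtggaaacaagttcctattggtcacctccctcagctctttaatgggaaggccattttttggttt
The capitals in CFB match the interferon-stimulated element on the opposite strand, which 3.02% of 35116 windows of 250 bases before annotated starts held. Those in C1R match the C/EBP motif TTGCNNAA on the opposite strand, held by 9.05% of the windows. The STAT motif TTCNNNGAA (6.57% of windows) matched CFB 92 bases before its start, inside an exon and outside the stretch shown. In the exonic window of C1R's other start the STAT motif matched 86 bases and the C/EBP motif 167 bases before that start. The kappa-B consensus (5.21% of windows) was searched as well and matched none of the windows of CFI, CFB, C5 and C1R. The CFI stretch held none of these letters. A match of letters is a description of the sequence and not a site shown to be used.

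The genes lie on 6 chromosomes (GENCODE v44, GRCh38): C3 at chr19:6677704-6730562, C5 at chr9:120932987-121075195, CFB at chr6:31945650-31952086, CFI at chr4:109731008-109802150, SERPING1 at chr11:57597387-57619171, C1S at chr12:6988259-7071032 and C1R at chr12:7080214-7092540. C1R and C1S are neighbours on opposite strands, with 9181 bases between them.

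After the filter of at least 500 genes and at most 20% mitochondrial counts per cell, 3089 to 12427 cells and 6880807 to 91184130 UMIs remained per library, with a median of 1310 to 14304.5 UMIs per cell. Levels are given as CPM, a gene's UMIs scaled to a common total of 1e+06, with UMIs summed over a library or over a class of its cells. EPCAM cells held at least 1 UMI of EPCAM, an epithelial surface gene, and none of COL1A2 or COL3A1, 2 collagen genes of mesenchymal cells, and COL cells the reverse. EPCAM cells made up 0.532% to 88.4% of a library and COL cells 1.18% to 57.1%. A library entered a comparison within a class with at least 50 cells of it, which left out the EPCAM cells of ULA day 34 replicate 1 (23 cells) and the COL cells of OA replicate 2 (38 cells). All 8 hepatocyte markers were detected in every library, at a summed 95.6 to 23890 CPM. ALB, the albumin gene, was low in several groups, at 0.0385 to 0.307 CPM on ULA day 34 and 299.6 to 685 CPM with OA. The macrophage list, whose cells also make complement, summed to 0.658 to 83.0 CPM, with C1QA at 0 in every library. Libraries shared 2 to 43 cell barcodes per pair (median 13 over 171 pairs).

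**Figure D1:**
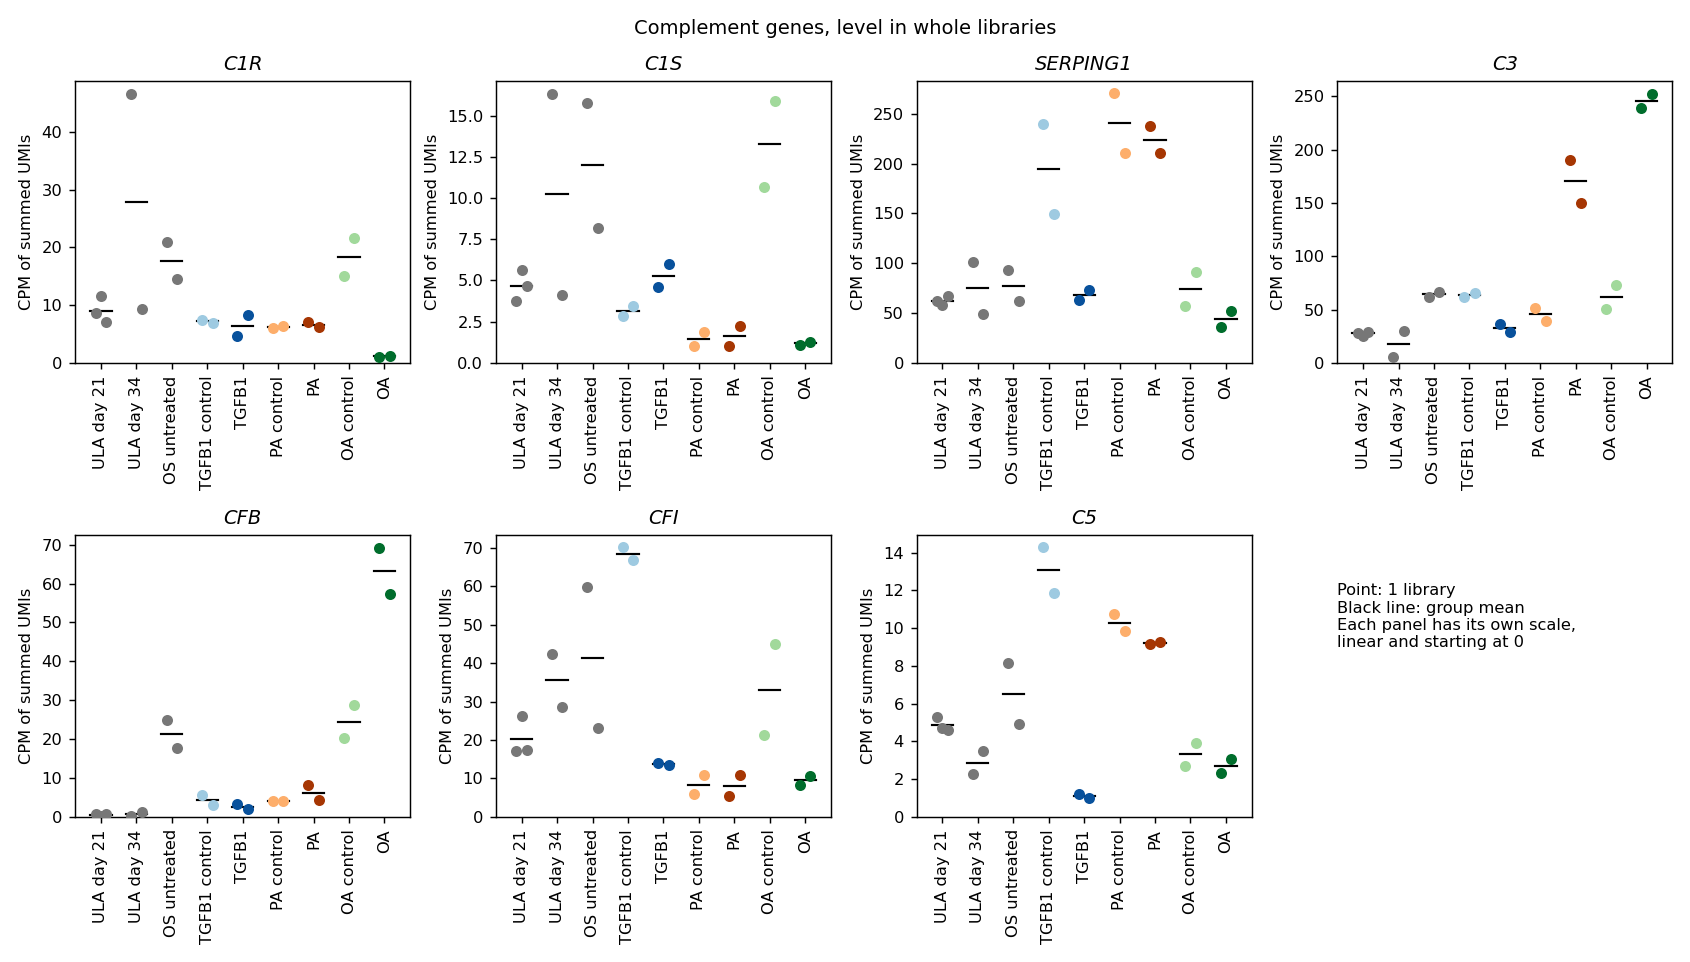
Level of each complement gene, in CPM of UMIs summed over all cells of a library (vertical axis, linear from 0, with a scale of its own in each panel), by group (horizontal axis). Points are libraries and black lines group means. C3 was highest in the OA and PA libraries, C1R lowest in the OA libraries and C5 lowest in the TGFB1 libraries.

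C1R and C1S, the proteases that open the classical route, followed similar orders over the groups. C1R had its highest group mean in ULA day 34, at 27.9 ± 26.3 CPM (SD, n = 2), which rested on replicate 1 at 46.5 CPM against 9.26 CPM in replicate 2. OA control (18.4 ± 4.6) and untreated OS organoids (17.7 ± 4.5) came next, and the other groups except OA lay between 4.70 and 11.5 CPM per library with ranges that overlapped along the order. OA was lowest, at 1.09 and 1.17 CPM, below all 17 other libraries. C1S was highest in OA control (10.7 and 15.9 CPM), untreated (15.8 and 8.17 CPM) and ULA day 34 (16.3 and 4.10 CPM), whose ranges overlapped. It was lowest in OA (1.11 and 1.28 CPM), PA control (1.02 and 1.90 CPM) and PA (1.05 and 2.23 CPM), whose ranges also overlapped. Over the 14 OS libraries the log2(CPM + 1) levels of C1R and C1S had a Pearson correlation of 0.82, given as a description, since the libraries share groups and cell mixtures.

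SERPING1, the inhibitor of both proteases, had another order. Its means were 241 ± 43 CPM in PA control, 224 ± 19 in PA and 195 ± 63 in TGFB1 control (SD, n = 2 each), with overlapping ranges. The other 6 groups lay lower, from 35.8 CPM in OA replicate 1 to 101 CPM in ULA day 34 replicate 1. By mean OA was lowest, with libraries at 35.8 and 51.6 CPM, and it did not overlap ULA day 21, the next group above it. It did overlap ULA day 34, whose mean was 75.04 CPM and whose replicate 2 lay inside the OA range.

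C3, the central component, was highest in OA (239 and 252 CPM) and next in PA (190.4 and 150.3 CPM). These groups did not overlap each other or any other group. Untreated, TGFB1 control and OA control libraries overlapped between 50.3 and 72.8 CPM, and PA control lay at 51.3 and 39.5 CPM. TGFB1 (36.7 and 29.1 CPM) and ULA day 21 (28.4, 25.5 and 29.2 CPM) overlapped, and ULA day 34 replicate 1 was the lowest library at 5.81 CPM, beside 29.5 CPM in replicate 2.

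CFB, the protease subunit of the alternative convertase, separated by experiment. It was highest in OA (69.1 and 57.2 CPM), followed by OA control (20.2 and 28.7 CPM) and untreated (24.9 and 17.8 CPM), which overlapped. The TGFB1 and PA experiments, controls included, lay between 1.84 and 8.11 CPM, and the ULA libraries between 0.128 and 1.21 CPM. The matrices of the OA, OA control and untreated libraries name another software version in their headers than the rest. They list 36601 genes, those of the TGFB1 and PA experiments 33538 and those of ULA 58676. Experiment, software and gene list cannot be told apart in these differences between OS controls, nor culture and gene list between ULA and OS.

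CFI, the inactivating protease, was highest in TGFB1 control (70.2 and 66.9 CPM), which overlapped no other group. Untreated libraries were far apart, at 59.9 and 23.0 CPM, and overlapped ULA day 34 (42.5 and 28.7 CPM) and OA control (21.1 and 44.997 CPM). TGFB1 lay at 13.97 and 13.5 CPM, and OA, PA control and PA overlapped between 5.38 and 10.8 CPM. C5, the terminal component, was highest in TGFB1 control (14.3 and 11.8 CPM), PA control (10.8 and 9.82 CPM) and PA (9.16 and 9.24 CPM). It was lowest in TGFB1, at 1.18 and 0.995 CPM, below all other libraries, while OA control, ULA day 34 and OA overlapped between 2.26 and 3.93 CPM.

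The genes split by cell class. By the CPM values, C3 was higher in EPCAM cells than in COL cells of the same library in 17 of the 17 libraries with enough cells of both classes, and C1R and C1S were higher in COL cells in 17, with C1R in the OA library resting on 2 UMIs in COL cells. C5 and CFB were higher in EPCAM cells in 16 each, some of them on 3 or fewer UMIs in COL cells. In the OA library C5 was at 2.37 CPM in EPCAM cells and had 0 UMIs in COL cells, where 3 UMIs would be 8.45 CPM, so no direction can be given there. In PA control replicate 1 CFB was at 4.71 CPM in EPCAM cells and at 0 UMIs in COL cells, and 3 UMIs there would also exceed the level in EPCAM cells. CFI was higher in COL cells in 14 and in EPCAM cells in 3, and SERPING1 was higher in EPCAM cells in 8 and in COL cells in 9. The classes rest on UMIs of EPCAM and the collagen genes, so a cell with more UMIs is more often given both.

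**Figure D2:**
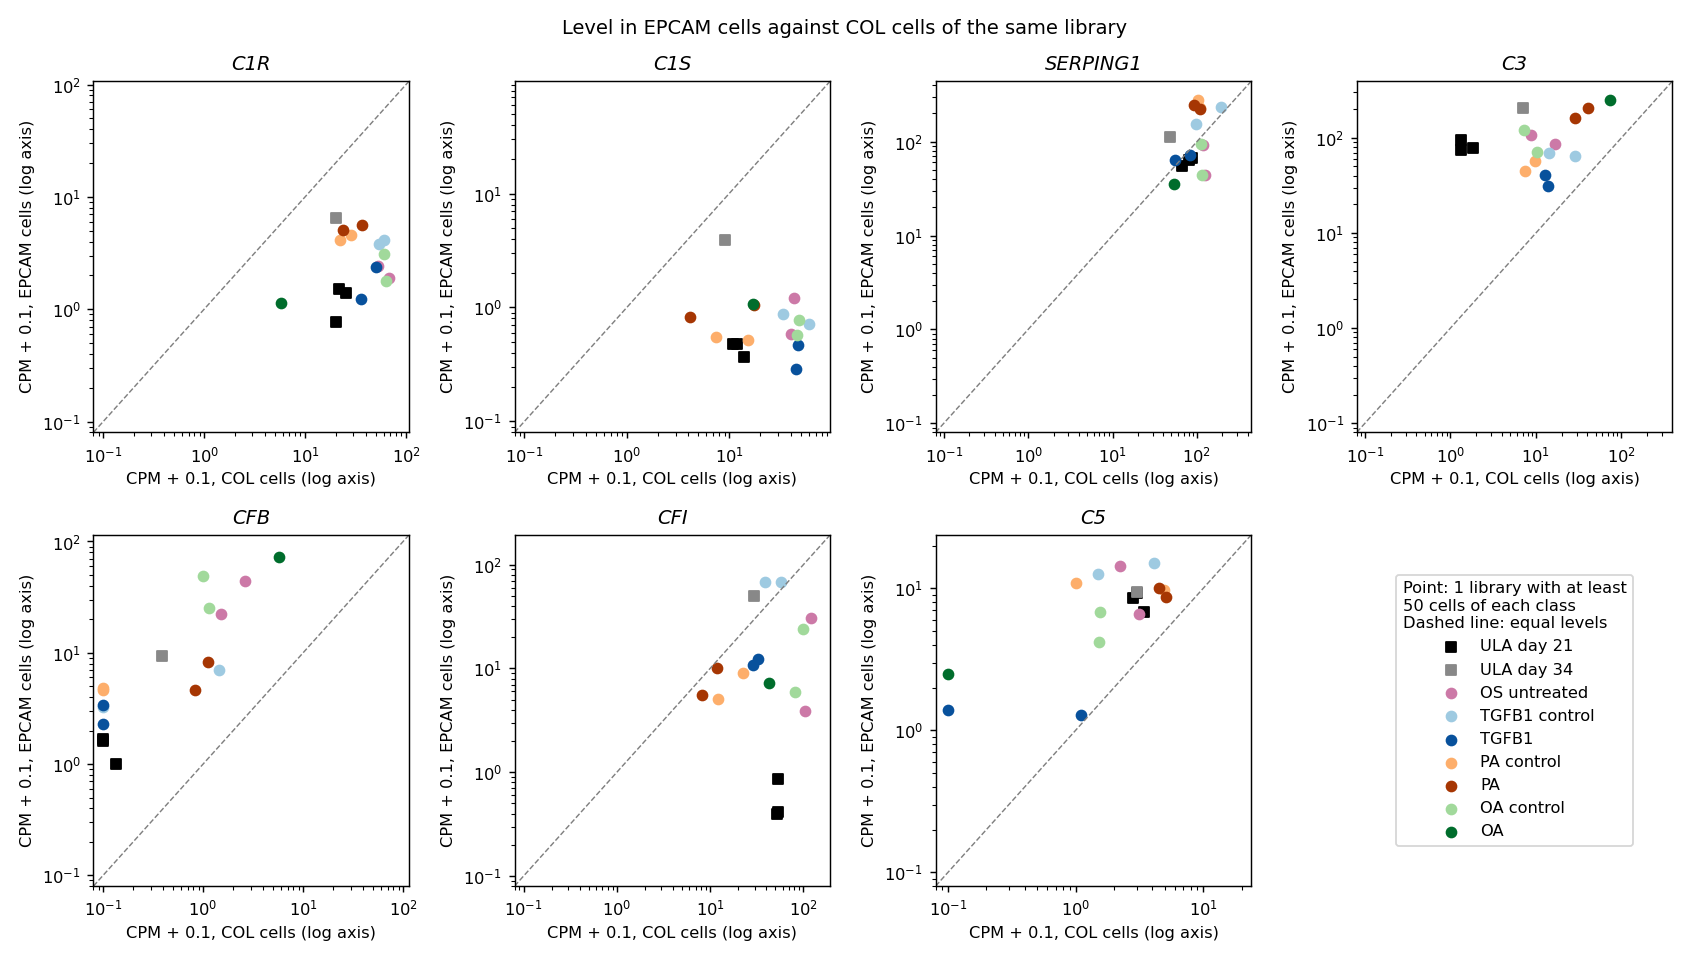
Level in EPCAM cells (vertical axis) against COL cells (horizontal axis) of the same library, in CPM + 0.1 on log axes, for the 17 libraries with at least 50 cells of each class. Points are libraries, coloured by group, squares are ULA libraries and the dashed line marks equal levels. C3, C5 and CFB lie above the line, with C5 in the OA library and CFB in PA control replicate 1 at 0 UMIs in COL cells, C1R and C1S lie below it, and CFI and SERPING1 on both sides.

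The classes were compared in edgeR within each group, and a gene was called at an adjusted p under 0.05 over all genes tested. Here and in the comparisons that follow, a fold is a ratio of CPM, while a log2 difference is edgeR's estimate after TMM scaling between libraries, so the log2 of a fold and the estimate beside it are not equal. In OA control all 7 genes were called, against 48.1% of the genes tested. C3 was at 70.6 and 122 CPM in EPCAM cells and at 10.1 and 7.18 CPM in COL cells (log2 difference 3.56 ± 0.23 SE, edgeR adjusted p 6.57e-12). The classes did not overlap, and over both libraries together C3 was 10.6-fold higher in EPCAM cells. CFB was at 24.9 and 48.5 CPM in EPCAM cells and at 1.05 and 0.897 CPM in COL cells (5.35 ± 0.26, edgeR adjusted p 2.31e-13), with 1218 UMIs against 24. C1R was at 1.69 and 3.01 CPM in EPCAM cells and 63.3 and 59.9 CPM in COL cells (-4.66 ± 0.21, edgeR adjusted p 1.85e-14). C1S was at 0.477 and 0.678 CPM against 45.7 and 47.5 CPM (-6.25 ± 0.29, edgeR adjusted p 2.64e-14). COL cells held 77.4% of C1R UMIs and 81.2% of C1S UMIs there and 23.1% of all UMIs. CFI was at 5.77 and 23.8 CPM in EPCAM cells and 80.3 and 98.1 CPM in COL cells (-2.75 ± 0.35). SERPING1 differed less, at 43.6 and 93.7 CPM against 115 and 112 CPM (-0.71 ± 0.20, edgeR adjusted p 0.00458), and without OA control replicate 1 the difference was -0.20 (edgeR adjusted p 0.557).

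Other groups gave the same split for C3, CFB and C1S with differing sizes, and so did C1R except with OA. There C1R was not called (-1.69 ± 1.17, edgeR adjusted p 0.396), and from 2 UMIs in COL cells it was 5.43-fold higher in them, with a 95% interval for counting error of 0.641 to 20.6. Untreated organoids had 7 of 7 genes called (45.5% of all genes), PA control 6 (32%), PA 6 (32.6%), TGFB1 control 5 (31.9%), TGFB1 5 (40.1%) and OA 3 (21.4%). ULA day 21 had 6 (68.5%) and ULA day 34 had 7 (21.6%). OA and ULA day 34 each rest on 1 library here, so the spread behind their p-values comes from the other groups of the fit. With thinned classes CFB lost its call in TGFB1 control (1.51, edgeR adjusted p 0.0702). With OA, C1R was then called higher in COL cells, as in the other groups (-2.91, edgeR adjusted p 0.00217). The thinned rule gave 105 COL cells in OA replicate 1 and 65 in OA replicate 2. In the main fit C5 was called higher in EPCAM cells in TGFB1 control (2.63), PA control (3.04) and PA (1.28). Leaving out replicate 2 ended the calls of C3 (1.32), CFB (2.47) and C5 (2.00) in TGFB1 control. It also ended those of CFB (9.23), C1S (-3.75) and C5 (1.24) in PA control. In PA it ended those of C1S (-2.25) and C5 (0.998), and in TGFB1 that of CFI (-1.41). Without PA replicate 1 the call of C5 in PA was lost as well (1.34). Without replicate 2 the count was 2 in TGFB1 control, where 11.6% of all genes were then called, and 3 in PA control, where 9.65% were. SERPING1 in untreated organoids differed by -0.75, and by -0.29 without replicate 2 (edgeR adjusted p 0.299). C3 showed its widest gap on ULA day 21, with 77.5, 95.7 and 74.5 CPM in EPCAM cells and 1.73, 1.22 and 1.23 CPM in COL cells, 58.5-fold over the 3 libraries together. CFB counts in COL cells were 0 in PA control and TGFB1, so its level in EPCAM cells was at least 5.6-fold and at least 6.62-fold higher there, taking 3 UMIs over the group as the floor.

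CFI had no fixed side. It was higher in COL cells on ULA day 21, at 52.99, 51.4 and 52.9 CPM against 0.756, 0.298 and 0.313 CPM in EPCAM cells (log2 difference -6.47 ± 0.17, edgeR adjusted p 2.19e-18). TGFB1 control had 67.2 and 68.1 CPM in EPCAM cells and 57.8 and 38.6 CPM in COL cells, a difference that was not called (0.58 ± 0.39, edgeR adjusted p 0.293). On ULA day 34 it was called higher in EPCAM cells of replicate 2 (0.78 ± 0.19, edgeR adjusted p 0.00357), but was -0.35 (edgeR adjusted p 0.454) with classes set on cells thinned to 1500 UMIs. EPCAM cells of the other shaker controls carried less CFI, at 4.94 and 8.91 CPM in PA control, 30.3 and 3.81 CPM in untreated and 5.77 and 23.8 CPM in OA control. SERPING1 sat at 276 and 229 CPM in EPCAM cells of PA control and 102 and 108 CPM in its COL cells (1.36 ± 0.23, edgeR adjusted p 4.6e-05), the reverse of its order in OA control.

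**Figure D3:**
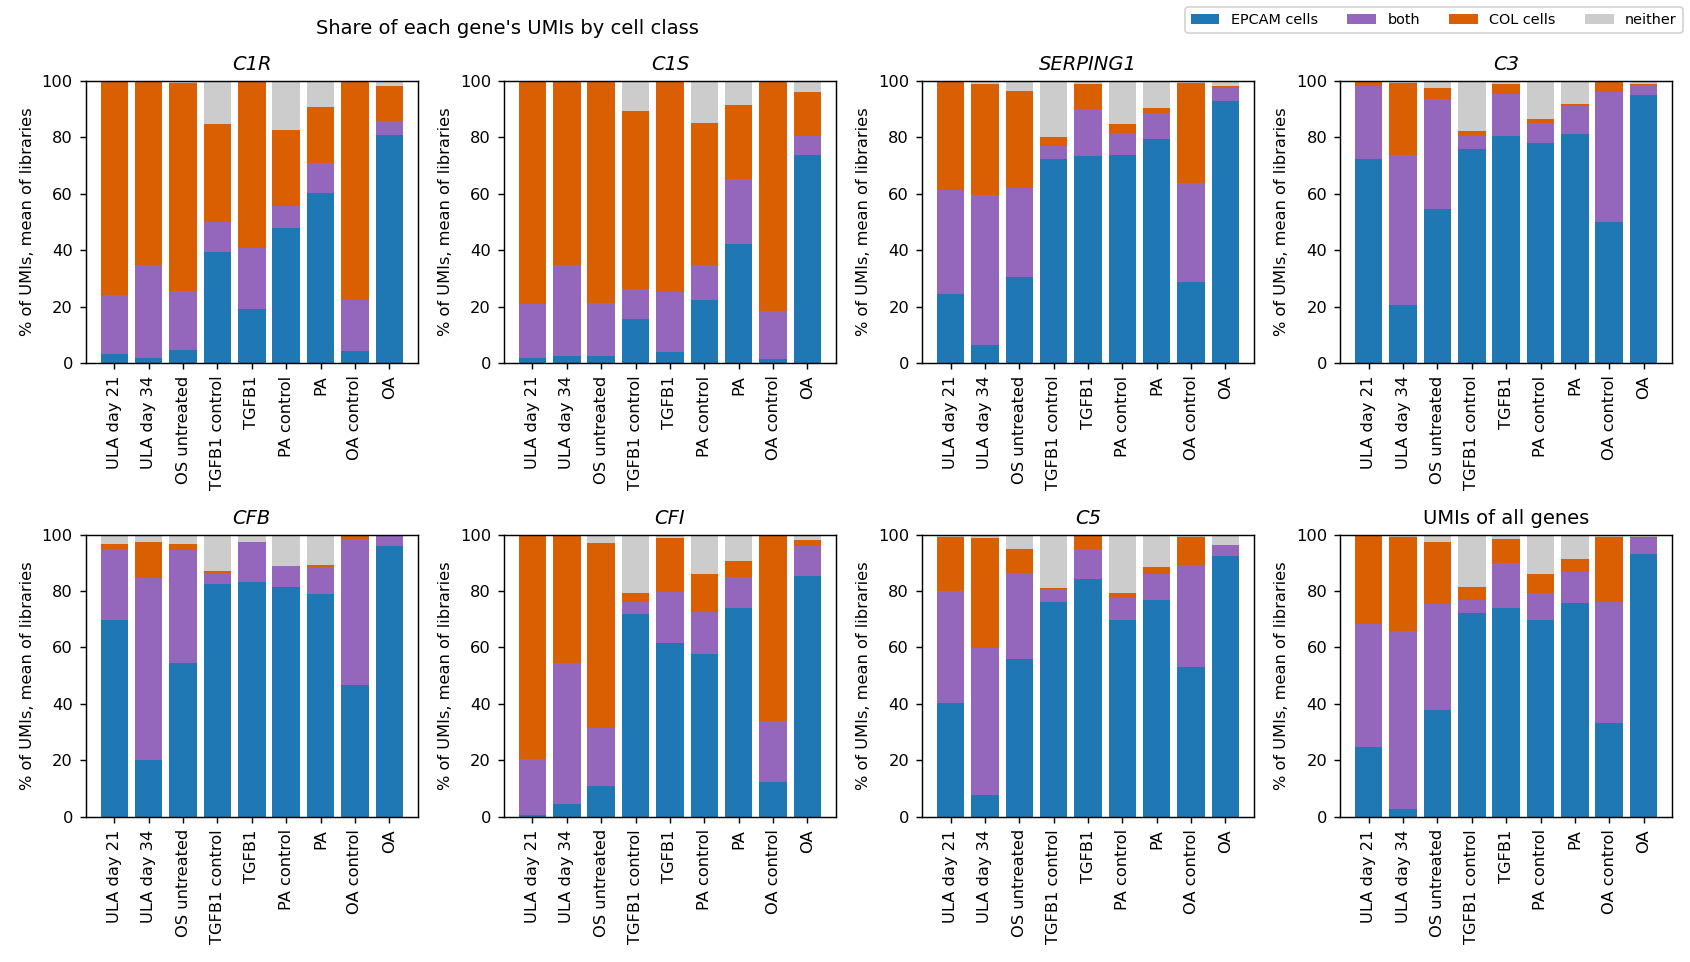
Share of each gene's UMIs found in EPCAM cells, COL cells, cells with both and cells with neither (bars, mean over the libraries of a group, in % from 0 to 100), by group, with the UMIs of all genes in the last panel. Most UMIs of C1R and C1S lay in COL cells in OA control (77.4% and 81.2%) and in EPCAM cells in OA (81.0% and 73.7%), where EPCAM cells held 93.1% of all UMIs.

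OA raised C3 and CFB and lowered C1R, C1S and CFI in whole libraries. C3 was at 50.3 and 72.8 CPM in OA control and at 239 and 252 CPM with OA, 3.99-fold higher (log2 fold change 2.35 ± 0.24 SE, edgeR adjusted p 1.24e-05). CFB was at 20.2 and 28.7 CPM and rose to 69.1 and 57.2 CPM, 2.58-fold (1.72 ± 0.32, edgeR adjusted p 0.000927). In neither gene did the groups overlap. C1R fell from 15.1 and 21.6 CPM to 1.09 and 1.17 CPM, 16.3-fold lower (-3.67 ± 0.29, edgeR adjusted p 2.16e-06). C1S fell from 10.7 and 15.9 CPM to 1.11 and 1.28 CPM, 11.1-fold lower (-3.12 ± 0.39, edgeR adjusted p 4.45e-05), again without overlap. CFI fell from 21.1 and 44.997 CPM to 8.27 and 10.7 CPM (-1.44 ± 0.41, edgeR adjusted p 0.0131), a call lost without OA control replicate 2 (-0.91, edgeR adjusted p 0.161) or without OA replicate 1 (-1.28, edgeR adjusted p 0.1). SERPING1 (-0.42 ± 0.27, edgeR adjusted p 0.233) and C5 (0.05 ± 0.25, edgeR adjusted p 0.889) did not pass. The 5 calls compare with 43.3% of 19366 genes called, 21.7% higher and 21.6% lower, and the median log2 fold change was -0.42 over the 7 genes and -0.08 over all genes.

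The cell classes shifted with OA. EPCAM cells were 88.4% of cells in both OA libraries and 27.7% ± 6.6 (SD, n = 2) in OA control, and COL cells 1.56% ± 0.54 against 36.4% ± 1.5. Cells with both were 5.03% ± 0.80 with OA and 29.3% ± 3.8 in OA control. They held 46.15% of C3 UMIs and 51.9% of CFB UMIs in OA control, and 3.66% and 3.34% with OA. The values within EPCAM or COL cells leave these cells out. In summed libraries, fewer cells of a type and less RNA per cell cannot be told apart, so the classes were compared separately. In EPCAM cells C3 was at 70.6 and 122 CPM in the control and 247 and 254 CPM with OA (log2 fold change 1.64 ± 0.26, edgeR adjusted p 0.000312), a 2.60-fold difference. The gut markers in EPCAM cells summed to 1316 to 2162 CPM in the control and 3894 to 4549 CPM with OA. The hepatocyte markers summed to 16540 to 18050 CPM and 23770 to 24760 CPM, without overlap in either list. In whole libraries SERPINA1, the largest hepatocyte marker in the control, fell from 7158 to 9786 CPM to 4455 to 6388 CPM. The other hepatocyte markers rose there without overlap, among them AFP from 455 to 503 CPM to 4501 to 5855 CPM. The mesenchymal markers in EPCAM cells went from 906 to 1061 CPM in the control to 180.4 to 212 CPM with OA, and the ductal markers from 467 to 998 CPM to 327 to 446 CPM. The leukocyte markers went from 709 to 779 CPM to 457 to 482 CPM. LYZ made up nearly all of that list in whole libraries, at 445 to 471 CPM with OA, where PTPRC held 0 UMIs. The endothelium markers went from 0.377 to 0.954 CPM to 3.91 to 4.87 CPM. In whole libraries PECAM1 rose from 0.380 to 0.627 CPM to 3.43 to 4.12 CPM. CDH5 rose from 0.0537 to 0.0759 CPM to 0.148 to 0.153 CPM. KDR fell from 1.2 to 2.315 CPM to 0.306 to 0.518 CPM. TEK fell from 1.33 to 1.36 CPM to 0 to 0.0191 CPM, and STAB2 stayed near 0. The part of these shifts in the results was not tested. CFB in these cells was at 24.9 and 48.5 CPM and at 71.8 and 58.7 CPM with OA (1.10 ± 0.36, edgeR adjusted p 0.0293), and lost its call without OA control replicate 1 (0.78, edgeR adjusted p 0.208) or OA replicate 1 (0.93, edgeR adjusted p 0.157). C1R fell within EPCAM cells from 1.69 and 3.01 CPM to 1.04 and 0.922 CPM (-0.98 ± 0.35, edgeR adjusted p 0.0429), a call lost without OA control replicate 2 (-0.64, edgeR adjusted p 0.322), OA replicate 1 (-1.09, edgeR adjusted p 0.119) or OA replicate 2 (-0.86, edgeR adjusted p 0.185). It was also lost with the replicate block (edgeR adjusted p 0.0622), with the highest Scrublet scores removed (edgeR adjusted p 0.0547) and with the class rule of 2 UMIs (edgeR adjusted p 0.057). Thus 3 of 7 genes were called in EPCAM cells, where 35.9% of genes were. C1S, which fell 11.1-fold in whole libraries, was at 0.477 and 0.678 CPM in EPCAM cells of the control and 0.977 and 0.902 CPM with OA (0.96 ± 0.45, edgeR adjusted p 0.107). With classes set on thinned cells it was called higher there (1.64, edgeR adjusted p 0.0344). CFI in EPCAM cells overlapped between the groups (-0.45 ± 0.65, edgeR adjusted p 0.622), and C5 missed the threshold (-0.75 ± 0.29, edgeR adjusted p 0.0592).

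COL cells with OA were few, and 1 library entered the test, so the spread behind its p-values comes from the other groups and the lone library is assumed to vary like them. The 60 cells of OA replicate 1 gave C3 at 73.2 CPM from 26 UMIs, against 10.1 and 7.18 CPM in OA control (2.88 ± 0.49, edgeR adjusted p 0.00385). C1R was at 5.63 CPM from 2 UMIs, against 63.3 and 59.9 CPM (-3.64 ± 0.73, edgeR adjusted p 0.0103). From the counts alone it was 10.9-fold lower, with a 95% interval for counting error of 3.01 to 90.03. The 38 COL cells of OA replicate 2, left out of the test, carried C1R at 55.5 CPM from 13 UMIs and C1S at 59.8 CPM from 14 UMIs, near the control levels. C3 in those cells was at 107 CPM from 25 UMIs. The calls in COL cells were 2 of 7, where 3.76% of genes were called. COL cells with OA carried the epithelial markers at a summed 3498 to 3949 CPM, against 920 to 977 CPM in COL cells of the control, and the mesenchymal markers at 5573 to 5992 CPM against 13670 to 15480 CPM, with the ductal markers at 478 to 1148 CPM against 51.7 to 72.3 CPM, and the part of this in the C3 result was not tested. The macrophage list was also higher, at 73.4 to 87.0 CPM in EPCAM cells with OA and 15.1 to 20.7 CPM in the control. CD68, a lysosomal gene, made up most of it, C1QA was at 0, and its part in the results was not tested. Classes set on cells thinned to 1500 UMIs gave 105 and 65 COL cells in the OA libraries, so both entered. CFI (-2, edgeR adjusted p 0.000773), SERPING1 (-1.12, edgeR adjusted p 0.0128) and C1S (-1.97, edgeR adjusted p 0.0118) were then called lower with OA. C1R and C3 kept their calls, in a fit that called 1952 of 14235 genes. Without thinning, from 1 OA library, CFI, SERPING1 and C1S were at -1.27, -1.28 and -1.66.

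In this fit, which holds 1 OA library, the effect of OA was called different between EPCAM and COL cells for 2 of the 7 genes, where 8.35% of all genes had a called difference and the median over all genes was 0.80. The log2 effect in EPCAM cells minus that in COL cells was 2.97 ± 0.80 for C1R (edgeR adjusted p 0.022) and 2.89 ± 0.71 for C1S (edgeR adjusted p 0.0115). Both rest on the 60 COL cells of that library, and the COL cells of the other OA library carried both genes near the control level. Without OA control replicate 1 they were 2.31 (edgeR adjusted p 0.127) and 2.45 (edgeR adjusted p 0.0674), while C3 then passed at -1.89 (edgeR adjusted p 0.00584).

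The share of cells with a C3 UMI was higher with OA as well. After each cell was thinned to 1500 UMIs, 27.5% and 31.6% of EPCAM cells held C3 with OA, against 8.12% and 14.8% in the control. Unthinned, the shares were 66.1% and 69.5% at a median of 10340 and 8506 UMIs, against 27.9% and 45.7% at 8290 and 16080 UMIs. In COL cells of the control the thinned share was 1.33% and 0.480% at an unthinned median of 4062 and 11000 UMIs. In COL cells with OA it was 7.41% of 54 cells and 17.65% of 34 cells, at an unthinned median of 5182 and 3886 UMIs. EPCAM cells held 93.1% of all UMIs and 95.02% of C3 UMIs in the OA libraries, and the part of free RNA from them in the C3 UMIs of COL cells was not tested. Thinning left out 203 and 222 EPCAM cells with OA and 129 and 24 in the control.

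PA raised C3, and no other gene of the set was called. C3 was at 51.3 and 39.5 CPM in PA control and at 190.4 and 150.3 CPM with PA, 3.75-fold higher without overlap (log2 fold change 1.96 ± 0.24 SE, edgeR adjusted p 0.0103). The call is 1 of 7, where 9 of 19366 genes were called (0.0465%), all of them higher. It was lost without PA control replicate 1 (2.23, edgeR adjusted p 0.175) and without PA control replicate 2 (1.74, edgeR adjusted p 0.623). CFB was at 3.92 and 3.95 CPM in the control and 8.11 and 4.19 CPM with PA (0.69 ± 0.36, edgeR adjusted p 1). C1R, C1S, SERPING1, CFI and C5 had log2 fold changes between -0.10 and 0.16, with an edgeR adjusted p of 1 each. The median log2 fold change over the 7 genes was 0.15, and 0.02 over all genes.

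In EPCAM cells C3 was at 56.8 and 44.6 CPM in PA control and 205 and 160.4 CPM with PA (1.89 ± 0.26, edgeR adjusted p 0.0211), the only call of 7 there, where 0.103% of genes were called. It was lost without PA control replicate 1 (2.14, edgeR adjusted p 0.137), PA control replicate 2 (1.68, edgeR adjusted p 0.913) or PA replicate 2 (2.06, edgeR adjusted p 0.0866), and under the replicate block (edgeR adjusted p 0.0692). The macrophage markers in EPCAM cells were at 12.1 to 15.8 CPM with PA and 11.04 to 11.67 CPM in the control. The endothelium markers were at 0.222 to 0.294 CPM and 0.533 to 0.673 CPM, and the other lists overlapped. The part of these shifts was not tested. C3 in COL cells was at 9.72 and 7.31 CPM in the control, from 4 and 24 UMIs, and 40.4 and 28.7 CPM with PA, from 40 and 78 UMIs. COL cells carried the hepatocyte markers at 2365 to 2428 CPM with PA and 1314 to 1552 CPM in the control, the ductal markers at 309 to 664 CPM and 170.0 to 199 CPM, and the epithelial markers at 1510 to 1666 CPM and 1185 to 1462 CPM, without overlap, and their part in the C3 values was not tested. The difference in C3 was not called (2.13 ± 0.44, edgeR adjusted p 0.189), in a comparison where 0 of 14189 genes were (0%) and 2 of the 7 had an unadjusted p under 0.05. The effect on C3 differed between classes by -0.08 ± 0.47 on the log2 scale (edgeR adjusted p 1), and 0 of 7 genes had a called difference of effects, where 0.0107% of all genes did and 1 of the 7 had an unadjusted p under 0.05. DESeq2 was not run within classes. Thinned to 1500 UMIs, 16.7% and 13.3% of EPCAM cells held C3 with PA, against 7.14% and 5.41% in the control. Unthinned, these were 26.4% and 30.6% at a median of 3020 and 6239 UMIs, against 9.01% and 16.4% at 2042 and 8028 UMIs. Thinned COL cells of the control held 0% and 1.29%, at unthinned medians of 1491 and 4601 UMIs, and those with PA 2.93% and 2.83%, at 2057 and 4276 UMIs. EPCAM cells were 70.1% ± 4.3 of cells with PA and 61.5% ± 7.1 in the control (SD, n = 2 each).

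TGFB1 lowered C5, CFI, SERPING1 and C3 and raised none of the 7. C5 fell from 14.3 and 11.8 CPM in TGFB1 control to 1.18 and 0.995 CPM, 12.0-fold lower (log2 fold change -3.37 ± 0.28 SE, edgeR adjusted p 6.98e-06). CFI fell from 70.2 and 66.9 CPM to 13.97 and 13.5 CPM, 4.99-fold lower (-2.12 ± 0.42, edgeR adjusted p 0.00337). Neither gene's groups overlapped. SERPING1 fell from 239 and 149.9 CPM to 63.0 and 72.7 CPM (-1.30 ± 0.27, edgeR adjusted p 0.00461), and missed the threshold without TGFB1 replicate 1 (-1.20, edgeR adjusted p 0.0644). C3 fell from 61.6 and 65.7 CPM to 36.7 and 29.1 CPM (-0.76 ± 0.23, edgeR adjusted p 0.034). That call was lost without TGFB1 control replicate 2 (-0.60, edgeR adjusted p 0.115), TGFB1 replicate 1 (-0.94, edgeR adjusted p 0.0835) or TGFB1 replicate 2 (-0.59, edgeR adjusted p 0.233), and when only the 2 groups were fitted (edgeR adjusted p 0.0589). CFB (-0.49 ± 0.35, edgeR adjusted p 0.341) and C1R (0.04 ± 0.26, edgeR adjusted p 0.928) overlapped between the groups. C1S was at 2.85 and 3.48 CPM in the control and 4.59 and 5.99 CPM with TGFB1 and did not pass (0.90 ± 0.37, edgeR adjusted p 0.0943), although it did with no filter on low counts (0.92, edgeR adjusted p 0.0184). The 4 calls compare with 22.2% of 19366 genes called, 11.3% of them lower, and the median log2 fold change was -0.76 over the 7 genes and -0.05 over all genes.

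**Figure D4:**
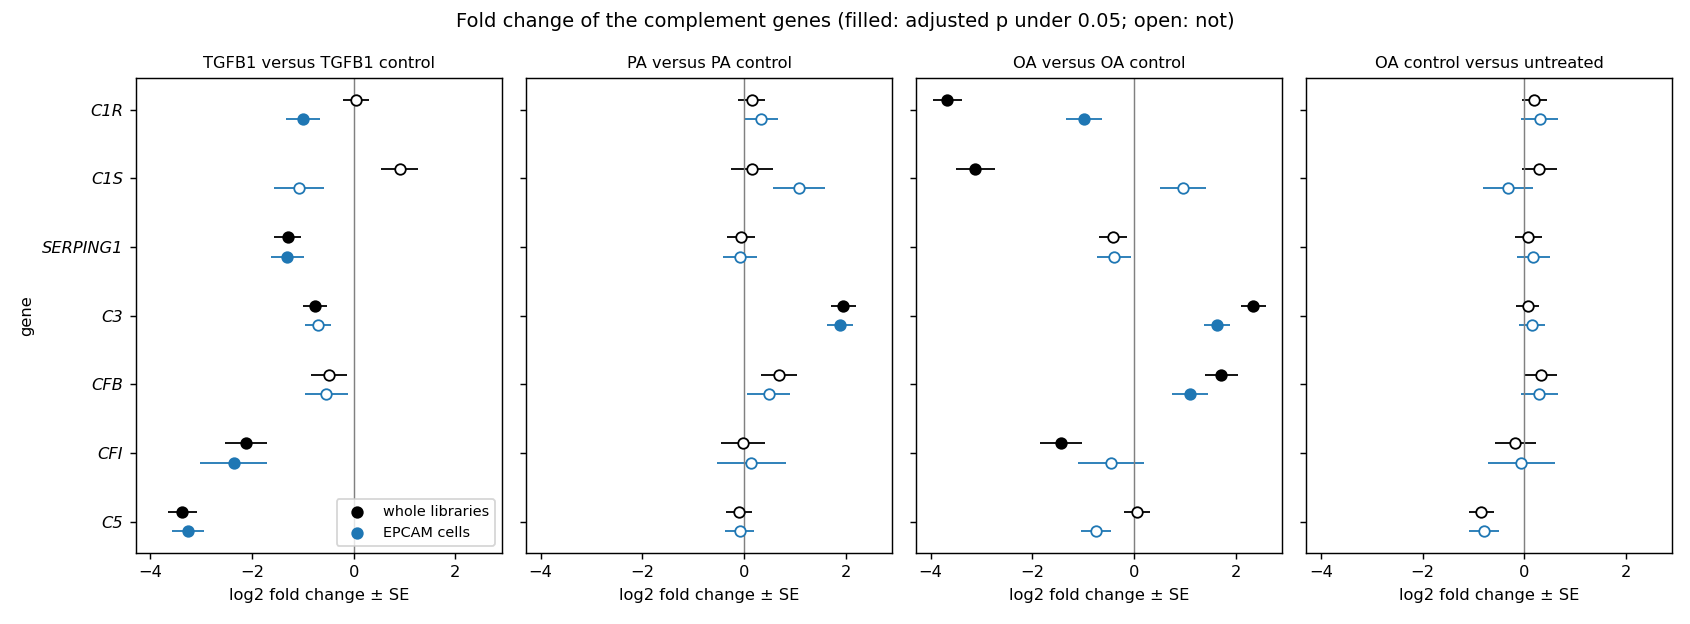
log2 fold change ± SE (horizontal axis) of each complement gene (vertical axis) in 4 comparisons of shaker organoids, in whole libraries (black) and in EPCAM cells (blue). Filled points have an edgeR adjusted p under 0.05. C3 lies right of 0 with PA (1.96) and OA (2.35) in whole libraries, C5 lies at -3.37 with TGFB1, and C1R and C1S lie at -3.67 and -3.12 with OA.

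In EPCAM cells TGFB1 lowered C5, CFI, SERPING1 and C1R, 4 of 7 genes where 25% of genes were called. C5 was at 14.9 and 12.6 CPM in the control and 1.30 and 1.18 CPM with TGFB1 (-3.26 ± 0.32, edgeR adjusted p 8.18e-06). CFI was at 67.2 and 68.1 CPM and at 12.3 and 10.6 CPM with TGFB1 (-2.36 ± 0.66, edgeR adjusted p 0.0185). SERPING1 was at 234 and 153 CPM and at 63.1 and 71.6 CPM (-1.30 ± 0.33, edgeR adjusted p 0.011). The groups did not overlap in any of these. Leaving out a library ended the calls of CFI (without TGFB1 replicate 1, -2.47, edgeR adjusted p 0.105, and without TGFB1 replicate 2, -2.24, edgeR adjusted p 0.111) and of SERPING1 (without control replicate 1, -1.08, edgeR adjusted p 0.0737, without TGFB1 replicate 1, -1.21, edgeR adjusted p 0.103, and without TGFB1 replicate 2, -1.37, edgeR adjusted p 0.0549). C1R was at 3.67 and 4.01 CPM and 1.14 and 2.28 CPM (-1.001 ± 0.337, edgeR adjusted p 0.0434), and lost its call without control replicate 1 (-1.13, edgeR adjusted p 0.0636), control replicate 2 (-0.79, edgeR adjusted p 0.19) or TGFB1 replicate 1 (-0.58, edgeR adjusted p 0.387), with the replicate block (edgeR adjusted p 0.066), with the highest Scrublet scores removed (edgeR adjusted p 0.0597) and with the class rule of 2 UMIs (edgeR adjusted p 0.0762). C3 was at 65.0 and 68.8 CPM and at 41.0 and 30.9 CPM and missed the threshold (-0.70 ± 0.25, edgeR adjusted p 0.0556). EPCAM cells carried the mesenchymal markers at 5162 to 5952 CPM with TGFB1 and 552 to 1162 CPM in the control. The gut markers in them summed to 78.5 to 94.4 CPM with TGFB1 and 366 to 398 CPM in the control, and the squamous markers to 12.3 to 13.9 CPM and 0.111 to 0.393 CPM. The leukocyte markers were at 32.8 to 40.6 CPM and 202 to 240 CPM. Nearly all of that list in whole libraries was LYZ, at 27.1 to 36.8 CPM with TGFB1 and 189.5 to 220.2 CPM in the control. The summed hepatocyte markers moved the other way from the called genes, at 5294 to 6202 CPM with TGFB1 and 2940 to 4230 CPM in the control, as did the epithelial markers, at 7634 to 9851 CPM and 3729 to 6152 CPM. SERPINA1, which encodes a protease inhibitor secreted by hepatocytes, made up most of the hepatocyte sum, at 4129 to 4994 CPM in whole libraries with TGFB1 and 1533 to 2657 CPM in the control. Of the other 7 hepatocyte markers in whole libraries, 5 (AFP, ALB, APOB, FGB and TTR) were lower with TGFB1 without overlap, and APOA1 and APOA2 overlapped. The part of these shifts in the results was not tested.

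COL cells gave no call with TGFB1, where 0.0211% of 14189 genes were called and 1 of the 7, SERPING1, had an unadjusted p under 0.05. CFI in COL cells was at 57.8 and 38.6 CPM in the control and 32.8 and 28.9 CPM with TGFB1 (-0.32 ± 0.26, edgeR adjusted p 0.594). The effect of TGFB1 on CFI differed between EPCAM and COL cells by -2.10 ± 0.54 on the log2 scale (edgeR adjusted p 0.0172), the 1 called difference among the 7 genes, where 6.32% of all genes had one. It missed the threshold without TGFB1 control replicate 2 (-1.88, edgeR adjusted p 0.147), TGFB1 replicate 1 (-2.11, edgeR adjusted p 0.0894) or TGFB1 replicate 2 (-1.99, edgeR adjusted p 0.121). C1R in COL cells was at 53.7 and 60.2 CPM in the control and 36.0 and 50.3 CPM with TGFB1 (-0.16 ± 0.29, edgeR adjusted p 0.837), while COL cells were 4.24% ± 0.46 of cells in the control and 9.05% ± 0.72 with TGFB1 (SD, n = 2 each) and held 34.7% and 58.7% of C1R UMIs. Cells with both were 3.59% ± 2.34 in the control and 12.2% ± 5.0 with TGFB1, and cells with neither 24.82% ± 28.15 and 5.78% ± 2.26. Control replicate 1 had a median of 1310 UMIs per cell and 44.7% of cells with neither. Control replicate 2 had 5635 UMIs and 4.91%. The part of depth and class membership in the TGFB1 results was not tested.

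OA control and untreated organoids were compared to see whether the control differed from no treatment. The OA comparison shares its OA control libraries, so the values stand side by side. No complement gene was called in edgeR, where 0.573% of 19366 genes were, and DESeq2 called none of the 7 either. C5 alone had an unadjusted p under 0.05, at 8.16 and 4.89 CPM in untreated and 2.67 and 3.93 CPM in OA control (log2 fold change -0.84 ± 0.25 SE, edgeR adjusted p 0.151), without overlap. C3 differed by 0.07 ± 0.23 on the log2 scale (edgeR adjusted p 0.923) between these groups and by 2.35 ± 0.24 between OA and OA control. CFB differed by 0.34 ± 0.32 (edgeR adjusted p 0.655) and 1.72 ± 0.32, C1R by 0.20 ± 0.25 (edgeR adjusted p 0.751) and -3.67 ± 0.29, and C1S by 0.30 ± 0.34 (edgeR adjusted p 0.728) and -3.12 ± 0.39. No gene of the set was called within EPCAM cells, where 1.28% of genes were and C5 had an unadjusted p under 0.05, or within COL cells, where 0.0352% were and 0 of the 7 had such a p. Effects differed between classes for 0 of the 7 in edgeR, where 0.16% of all genes had a called difference and CFB alone had an unadjusted p under 0.05. Without untreated replicate 2, C5 was called in EPCAM cells (-1.17, edgeR adjusted p 0.0432).

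ULA organoids on day 34 and day 21 gave no called difference among the 7 genes in whole libraries with edgeR, where 15.6% of 22257 genes were called, while 3 of the 7 had an unadjusted p under 0.05 and DESeq2 called C5 and C1R. Only day 34 had the added wash and longer trypsin step, so day and dissociation cannot be told apart in the ULA comparisons. The 2 day 34 libraries stood apart. C3 was at 5.81 CPM in day 34 replicate 1 and 29.5 CPM in replicate 2, against 28.4, 25.5 and 29.2 CPM on day 21 (log2 fold change -0.78 ± 0.56 SE, edgeR adjusted p 0.383). C1R was at 46.5 and 9.26 CPM, against 8.65, 11.5 and 6.996 CPM (1.49 ± 0.57, edgeR adjusted p 0.119). In both genes replicate 2 lay near the day 21 libraries and replicate 1 did not. Without day 34 replicate 2, 6 of the 7 were called: C3 (-2.40), CFB (-2.05) and C5 (-1.25) lower, and C1R (2.21), C1S (1.65) and CFI (0.92) higher, with an edgeR adjusted p between 7.68e-06 and 0.0233, in a fit that called 30.7% of 23334 genes. That fit holds 1 day 34 library, so its spread comes from day 21 alone and says nothing of the variation between day 34 libraries. The share of EPCAM cells differed alongside, at 0.532% of cells in replicate 1 and 6.01% in replicate 2, against 11.7% to 18.8% on day 21. Cells with both made up 49.6% and 59.7% of the day 34 libraries and 29.8% to 42.5% on day 21. The epithelial markers in whole libraries overlapped, at 4511 to 5658 CPM on day 34 and 3876 to 5222 CPM on day 21.

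Within EPCAM cells 5 of 7 genes were called higher on day 34, where 17.6% of genes were called, and the day 34 values come from replicate 2 alone. The spread behind these p-values is that of the 3 day 21 libraries, and the lone library is assumed to vary like them. CFI was at 49.9 CPM from 236 UMIs, against 0.756, 0.298 and 0.313 CPM from 18, 4 and 7 UMIs on day 21, 109.5-fold higher (6.32 ± 0.33, edgeR adjusted p 1.43e-06). The 23 EPCAM cells of day 34 replicate 1, not tested, held CFI at 19.0 CPM from 5 UMIs. CFB (2.41 ± 0.39), C1R (2.16 ± 0.47), C1S (3.12 ± 0.56) and C3 (0.97 ± 0.20) were also higher. Other markers differed beside them. EPCAM cells of the day 34 libraries carried the mesenchymal markers at 671 to 1050 CPM, against 251 to 279 CPM on day 21, the squamous markers at 125.5 to 554.5 CPM against 0.504 to 0.581 CPM, and the ductal markers at 966 to 1374 CPM against 220.3 to 254 CPM. The gut markers were at 79.9 to 162 CPM against 544 to 585 CPM, and the hepatocyte markers at 4227 to 5832 CPM against 6942 to 8955 CPM. The leukocyte markers were at 125.5 to 303 CPM against 341 to 452 CPM. LYZ made up most of the leukocyte sum in whole libraries, at 1.97 to 35.15 CPM on day 34 and 85.2 to 162 CPM on day 21. The endothelium markers were at 0 to 0.423 CPM against 1.26 to 1.79 CPM and the macrophage markers at 2.75 to 3.80 CPM against 1.43 to 2.68 CPM, and the part of these shifts in the calls was not tested. When the classes were set on cells thinned to 1500 UMIs, C3 was -0.31 (edgeR adjusted p 0.508) and CFB 1.07 (edgeR adjusted p 0.188), while CFI was 4.09 (edgeR adjusted p 0.000126), C1S 1.74 (edgeR adjusted p 0.0474) and C1R 1.31 (edgeR adjusted p 0.0218). In COL cells C3 alone of the 6 genes tested was called, at 5.97 and 6.92 CPM on day 34 and 1.73, 1.22 and 1.23 CPM on day 21 (2.08 ± 0.27, edgeR adjusted p 0.00271), where 17.7% of genes were called. Thinned classes gave 1.07 (edgeR adjusted p 0.0713) for it. COL cells of day 34 carried the squamous markers at 33.96 to 430.2 CPM, against 0.420 to 0.662 CPM on day 21, and the ductal markers at 69.6 to 377 CPM against 21.5 to 28.4 CPM, and the part of this was not tested. The change from day 21 to day 34 differed between the classes for 5 of the 7 genes, where 20.5% of all genes had a called difference. EPCAM cells minus COL cells gave 7.25 ± 0.29 for CFI, 3.67 ± 0.53 for C1S, 2.44 ± 0.39 for C1R, 1.36 ± 0.16 for SERPING1 and -1.24 ± 0.24 for C3, with an edgeR adjusted p between 1.36e-13 and 0.000721. With thinned classes SERPING1 (0.12, edgeR adjusted p 0.836) and C1R (1.13, edgeR adjusted p 0.0989) lost the call, while CFI was 4.47 and C1S 2.03.

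Of 49 other complement genes listed, 29 could be tested in OS organoids. C4A and C4B, near-identical copies, held 2 UMIs each over all libraries, and counts cannot be assigned between them with confidence. With OA 12 rose and 7 fell, against 21.7% and 21.6% of all genes, with a median log2 fold change of 0.23. C4BPA, which binds C4b and helps factor I, rose from 0.184 ± 0.00757 to 3.14 ± 0.16 CPM (SD, n = 2 each, 4.41 ± 0.48 SE, edgeR adjusted p 4.22e-05). C8B and MBL2, a membrane attack component and the mannose-binding lectin, rose from 1 and 2 UMIs in OA control to 73 and 30 with OA, ratios of 74.5 (95% counting interval 12.96 to 2983) and 15.3 (3.88 to 132). COLEC11 and COLEC10, collectins of the lectin route, fell. COLEC11 went from 146 UMIs to 2, a ratio of 71.5 (19.4 to 596), and COLEC10 from 2.75 ± 0.86 to 0.0852 ± 0.0420 CPM (-4.63 ± 0.67, edgeR adjusted p 0.000132). C3AR1, the receptor of a C3 fragment, fell as well (-4.24 ± 0.73, edgeR adjusted p 0.000482). COLEC10, COLEC11 and C3AR1 were called lower in EPCAM than COL cells of OA control (-6.65, -5.36 and -5.88), and fewer COL cells and less RNA per cell cannot be told apart in these falls.

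With TGFB1 5 of the 29 rose and 8 fell, against 10.9% and 11.3% of all genes, with a median of -0.41. CLU and VTN, inhibitors of the membrane attack complex, fell from 926 ± 232 to 70.9 ± 2.0 CPM (-3.50 ± 0.33, edgeR adjusted p 1.45e-05) and from 224 ± 15 to 35.7 ± 3.4 CPM (-2.46 ± 0.27, edgeR adjusted p 3.94e-05). C6, a membrane attack component, fell too (-2.80 ± 0.38, edgeR adjusted p 0.000207). CPN1, a carboxypeptidase that trims complement fragments, went from 35 UMIs to 3, a ratio of 14.3 (4.50 to 72.5), and C8A from 8 UMIs to 0. C3AR1 rose from 0.394 ± 0.200 to 2.05 ± 0.88 CPM (2.38 ± 0.67, edgeR adjusted p 0.0233). With PA 0 of the 29 were called in edgeR (0.0465% of all genes), with 2 at an unadjusted p under 0.05, and likewise 0 between OA control and untreated (0.573%), with 2. On ULA day 34, 2 of 26 genes were called higher, CSMD1 (3.04) and C8G (1.19, with an edgeR adjusted p just under 0.05), and CPN1 lower (-3.19). This count does not exceed the 15.6% of all genes called.

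A second list held 30 cytokines, receptors and transcription factors known to act on complement genes in liver, of which 28 could be tested in OS organoids. With OA 21 rose and 1 fell, against 21.7% and 21.6% of all genes, with a median log2 fold change of 1.17. IL1B rose from 0.421 ± 0.317 to 10.6 ± 3.1 CPM (5.01 ± 0.52, edgeR adjusted p 1.24e-05) and IL1A from 2.99 ± 0.0966 to 47.1 ± 1.2 CPM (4.31 ± 0.37, edgeR adjusted p 3.93e-06). NR1H4, the bile acid receptor gene, TNF and IFNGR1 rose by 2.91, 2.88 and 2.84 on the log2 scale, and SOCS3, an inhibitor of cytokine signalling, fell by 2.28. With PA TNF alone was called (1.99 ± 0.31, edgeR adjusted p 0.0408), against 0.0465% of all genes, from 4.57 ± 1.15 to 16.8 ± 3.3 CPM. That call was lost when either PA control library was left out. TGFB1 raised 7 and lowered 4, against 10.9% and 11.3% of all genes, with a median of 0.31. IL1A (2.76), LIF (1.96) and TNF (1.95) rose and CEBPA (-1.41), NFKBIZ (-1.39) and SOCS3 (-1.35) fell. Between OA control and untreated 0 of 28 were called in edgeR (0.573% of all genes), with 3 at an unadjusted p under 0.05. On ULA day 34, 6 of 27 were higher, led by TNF (3.71), IL1B (2.95), IL1A (2.27) and CEBPD (1.97). Another 3 were lower, among them HNF4A (-3.56), whose product is a transcription factor of hepatocytes, where 15.6% of all genes were called. Day and dissociation cannot be told apart there.

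Genes whose levels followed each member most closely were sought over the 14 OS libraries, by Pearson correlation of log2(CPM + 1) among 8736 genes with a mean of at least 10 CPM. The libraries share groups, cell mixtures and depth, and the gene lists of their matrices differ between experiments, so the values describe likeness only. C3 was most like SLC6A14 (0.903), DUOX2 (0.9005) and CCL20 (0.892). CFB was most like C18orf32 (0.979), POLD4 (0.975) and ACY1 (0.971), and C5 most like CAPN6 (0.971), IGF2 (0.962) and SRRM1 (0.936). C1R was most like PCOLCE (0.969), CCDC3 (0.967) and TCF4 (0.964), and C1S most like COL3A1 (0.965), one of the genes that define COL cells, IFI16 (0.955) and IGFBP3 (0.951). CFI was most like ZWINT (0.952) and HNRNPA1 (0.945), and SERPING1 most like USP11 (0.967), NRTN (0.962) and CDK16 (0.957). Among the members, C5 and SERPING1 had a correlation of 0.829, C3 and CFB 0.62, and CFB and SERPING1 -0.623.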

How the data were processed

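Droplet 3′ single-cell RNA-seq of 19 libraries in 9 groups was analysed from the deposited matrices, which hold UMI counts per gene and cell and are not normalized, per the file headers. The headers name software 3.0.2 for the ULA, TGFB1 and PA libraries and another, later version for OA, OA control and untreated. The submitters' processing notes name bcl2fastq, Cell Ranger 3.0.2, Scanpy and GRCh38. Barcodes passed with 500 genes or more and a mitochondrial share of 20% or less, and doublets were kept in the reported values. UMIs were summed per library and per class of cells, with at least 50 cells per class, and tested with edgeR 4.0.16 (R 4.3.3, quasi-likelihood, TMM scaling, filterByExpr, Benjamini-Hochberg adjustment over all genes tested), in one fit over the 14 OS libraries and one over the 5 ULA libraries. Only shared identifiers were used (32732 in OS, 58676 in ULA). A gene was called at an adjusted p under 0.05. Classes were compared with library as a block. With 2 libraries against 2, an exact permutation test cannot go below 0.333, and with 2 against 3 not below 0.1, so none was used. Counting intervals are exact at 95% and, like the floor of 3 UMIs, cover counting error only.

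The 7 genes, the list of 49 other complement genes and the list of 30 cytokines and factors were chosen with earlier results of these data known. The text names all 7 genes, up to 6 called genes per list and comparison by size of fold change, and 3 genes per member by likeness, except 2 genes that are not reported here. Replicate numbers were not taken as pairs. Alternatives were DESeq2 1.42.0, its size factors in edgeR, no filter on low counts, a stricter cell filter (1000 genes, 10%), removal of the highest Scrublet scores (scanpy 1.11.5, 0.8% per 1000 barcodes), fits of only the groups compared, the replicate block, class rules of 2 UMIs or on cells thinned to 1500 UMIs, and each library left out. The edgeR script was tested on simulated data.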

Additional observations from a re-analysis of the deposited data

Results flagged for a closer look

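In 8 cases a gene's change differed between EPCAM cells and COL cells, by the edgeR test of the difference itself (change in EPCAM cells minus change in COL cells, log2 scale). With TGFB1 the difference was -2.10 for CFI, which fell in EPCAM cells and was not called in COL cells. With OA it was 2.89 for C1S and 2.97 for C1R, from the 60 COL cells of 1 OA library, and the 38 COL cells left out of that test carried both genes near the control level. Without OA control replicate 1 neither was called (2.45 and 2.31, edgeR adjusted p 0.0674 and 0.127), and with thinned classes C1R was not (1.37, edgeR adjusted p 0.159). The CFI difference with TGFB1 lost its call with thinned classes (-1.87, edgeR adjusted p 0.0853) and when replicate 2 of its control or either TGFB1 library was left out (0.0894 to 0.147 as edgeR adjusted p).

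From ULA day 21 to day 34 the difference was 7.25 for CFI, 3.67 for C1S, 2.44 for C1R, 1.36 for SERPING1 and -1.24 for C3. With classes set on thinned cells it was 4.47 for CFI, 2.03 for C1S and -1.47 for C3, and it lost its call for C1R (1.13, edgeR adjusted p 0.0989) and SERPING1 (0.12, edgeR adjusted p 0.836). The EPCAM cells of day 34 come from replicate 2 alone, and these cells carried the mesenchymal, squamous and ductal markers at a higher level than those of day 21, whose part in the differences was not tested.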

How the results depend on the processing

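Of 1433 log2 fold changes of the 7 genes recomputed, 5 turned direction after being called in one of the fits, and 94 changed sign while called in neither. Every alternative for the differences of effect between classes, and leaving out libraries when classes were compared within a group, was chosen after seeing the data. DESeq2 size factors in edgeR, the stricter cell filter and fitting only the groups compared left the count of called members within 1.5 times. For ULA day 34 against day 21 DESeq2 called 2 members and no filter on low counts 4, against 0. With classes set on thinned cells the members called were 5 rather than 2 in COL cells with OA, 3 rather than 5 in EPCAM and 0 rather than 1 in COL cells of ULA, and for differences between classes 0 rather than 1 with TGFB1, 1 rather than 2 with OA and 3 rather than 5 in ULA. There C3 in EPCAM cells of ULA turned to -0.31, and between classes of ULA day 34 CFI turned to -0.35 and SERPING1 to -0.0803. Same-number correlations of deviations ran from -0.643 to 0.162. Each rests on 1 difference between replicates per group, so they cannot show whether replicate numbers pair the libraries. The replicate block took the members called in EPCAM cells with PA from 1 to 0. It also ended the call of C1R in EPCAM cells with TGFB1 (edgeR adjusted p 0.066) and OA (edgeR adjusted p 0.0622). Leaving out each library gave 2 to 4 members with TGFB1, 0 to 1 with PA and 0 to 6 in ULA in whole libraries. In EPCAM cells it gave 1 to 3 with TGFB1, 0 to 1 with PA, 1 to 2 with OA and 0 to 1 for OA control against untreated, and in COL cells 0 to 1 with TGFB1 and 1 to 3 in ULA. Between classes it gave 2 to 5 in TGFB1 control and 3 to 6 in PA control, and for differences between classes 0 to 1 with TGFB1, 1 to 2 with OA and 0 to 1 for OA control against untreated. CFB in ULA ranged from -2.05 to 1.19 and SERPING1 in COL cells of ULA from -0.85 to 0.62. Counts of all genes called moved in many of these fits too, as given next, so the member counts alone are no result about the members. The cause of these changes was not tested.

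Counts of all genes called moved more. In whole libraries PA gave 9, against 51 with DESeq2, 162 with no filter, 4 with the replicate block, 16 with only its groups and 0 to 20 with a library left out. OA control against untreated gave 111, against 701 with DESeq2, 523 with no filter, 0 with the block or only its groups, and down to 0 with a library left out. TGFB1 gave 4295 and down to 1704, OA 8378 and down to 5171, and ULA 3475, against 2 with the block and 697 to 7165 with a library left out. In EPCAM cells PA gave 18 (3 with the block, 0 to 28), OA control against untreated 225 (2 with the block, 0 to 349), TGFB1 4374 (down to 1888) and OA 6300 (down to 3260). In COL cells TGFB1 gave 3 (50 thinned, 16 with the block, 0 to 1121), PA 0 (4 by 2 UMIs, 5 thinned, 2 with the block, up to 6), OA 534 (1952 thinned, down to 232), OA control against untreated 5 (10 by 2 UMIs, 0 to 30) and ULA 3082 (1021 with the block, 762 to 4685). Differences between classes gave 2 with PA (15 by 2 UMIs, 0 thinned, 4 without doublets, 0 to 5 with a library left out), 30 for OA control against untreated (103, 17 and 88, and 19 to 240 with a library left out), 1184 with TGFB1 (774 thinned, down to 632) and 1565 with OA (3022 thinned, down to 987). Between classes OA gave 4019 (6732 thinned), and leaving out a library gave 2161 for 5982 in TGFB1 control, 4831 for 7513 in TGFB1, 1797 for 5999 in PA control and 3102 for 6104 in PA.

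With 2 libraries in most groups, calls rest on few degrees of freedom. CFB and C5 in COL cells rest on few UMIs, so a difference there was often not detectable at this depth.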
